A study of Canis lupus familiaris with 8 samples.

Results

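The response of MDCK I cells to raffinose hyperosmolality was read from the 4 samples that received the control siRNA, out of the 8 samples of the series. MDCK I cells are an established epithelial line from dog kidney. The samples were taken by their group labels: 2 samples of Neg-siRNA (300 mOsm), kept in normal growth medium, and 2 samples of Neg-siRNA (500 mOsm), which spent the last 24 h in the same medium with 200 mOsm of raffinose added. In both groups the cells were transfected with 100 nM of the control siRNA, which is directed against Slc22a6, so transfection is shared by all 4 samples and an untransfected sample was not analysed here. Replicate 1 of each group came from passage 15 and replicate 2 from passage 17. The other 4 samples received siRNA against Nfat5 at 500 mOsm. They entered the filter on low counts and the estimate of the spread and, with the replicate block, that of the passage difference. Nothing in the labels says that the replicates were separate cultures beyond their passage, so p-values measure the spread between these samples. PolyA RNA was sequenced, and the deposited read counts summed to 44515340 and 34564103 in replicates 1 and 2 at 300 mOsm and to 41742578 and 43971253 at 500 mOsm.

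Raffinose is a sugar that does not enter cells readily, so added to the medium it draws water out of them. Kidney cells of the inner medulla live with such conditions. They are known to take up ions first and later to replace them with organic osmolytes (betaine, taurine, myo-inositol and sorbitol), which disturb proteins less, and to make more chaperones. The transcription factor NFAT5, also called TonEBP, is known to drive many of the genes for osmolyte carriers and enzymes.

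The count table lists genes by Ensembl identifier, and a symbol was at hand for 860 of them, from the list of 989 genes that the study published. The study chose that list on these same samples and describes it as genes raised by hyperosmolality and lowered by both Nfat5 siRNAs. In the counts 474 of the 860 had a log2 fold change above 0 and 386 below 0, so the list held falls as well as rises. That a named gene changed is therefore no independent evidence, and neither is its direction. The counts of named genes given here describe the response and are not a test of it. Of the genes called in this comparison, 18.4% had a symbol. The gene that is the target of the control siRNA and most markers of epithelial cells had none, so they were not analysed here.

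Raffinose changed the expression of 4077 of the 19835 genes tested. At 500 mOsm 2246 genes were higher and 1831 were lower, by edgeR's quasi-likelihood test with a Benjamini-Yekutieli adjusted p under 0.05. These are 11.3% and 9.23% of the genes tested. With the passage as a replicate block the calls rose to 3441 higher (17.3%) and 3125 lower (15.8%), and these held all 2246 and all 1831 of the calls made without it. In the fits that left out 1 library the calls fell to between 1393 and 1526 higher and between 991 and 1245 lower. The median log2 fold change of all genes tested was 0.00. It was 1.37 for the genes that rose and -1.36 for those that fell, so typical rises and falls were alike in size. In the tail they were not alike. Of the genes that rose, 720 rose by 4-fold or more and 191 by 32-fold or more, against 430 and 29 of the genes that fell. At most 3 counts were found in each 300 mOsm library for 173 of the genes that rose, while 24 of the genes that fell had at most 3 counts in each 500 mOsm library.

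**Figure D1:**
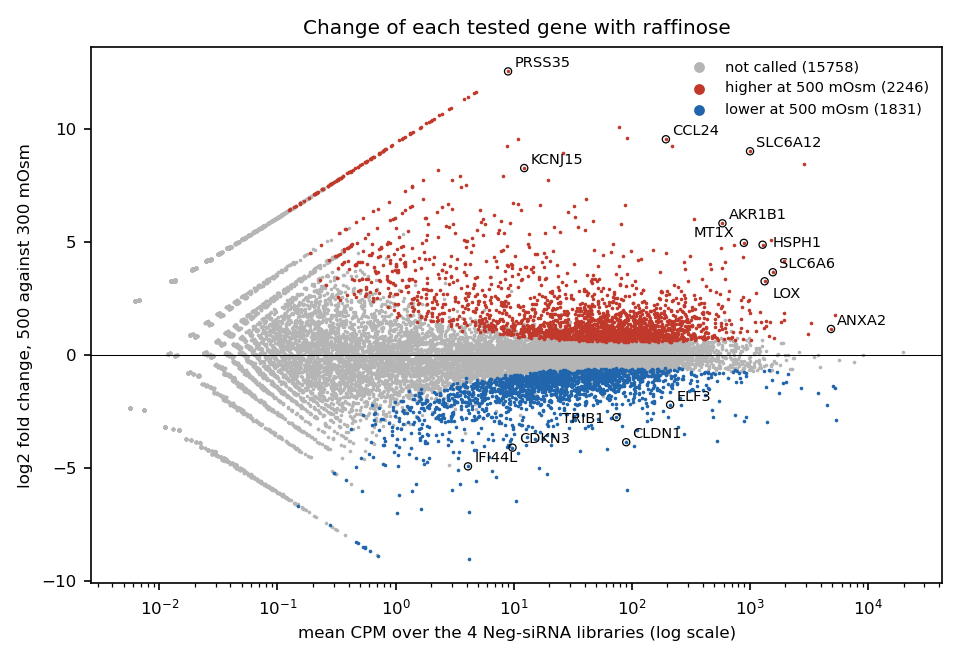
Each point is a gene, with its mean CPM over the 4 Neg-siRNA libraries on a log axis and its log2 fold change between 500 and 300 mOsm on the vertical axis. The 2246 genes called higher are red, the 1831 called lower are blue, and the straight lines of points at the left are genes with 0 or few counts in a group, whose fitted fold change is not a measured size. Rises reach further from 0 than falls.

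Genes that rose also took a larger share of the RNA. In the 300 mOsm libraries the genes called higher held 13.04% and 12.6% of the normalized counts, and in the 500 mOsm libraries 32.9% and 31.2%. The genes called lower held 18.9% and 19.7% at 300 mOsm and 6.81% and 7.19% at 500 mOsm. Both replicates of a group gave nearly the same share. Since the calls themselves chose these genes, the shares are a description. In bulk RNA a fall can mean less RNA per cell or fewer cells that hold it, and these cannot be told apart.

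Rises and falls were also counted by the level of a gene in its higher group. Among the 6764 genes whose higher group lay between 10 and 100 CPM (the count scaled to the TMM-adjusted total of its library), 953 rose and 1114 fell. Among the 2729 genes between 100 and 1000 CPM, 780 rose and 308 fell, which is 28.6% and 11.3% of them. Among the 155 genes of 1000 CPM or more, 49 rose and 26 fell. Below 1 CPM 98 of 6961 genes rose and 11 fell, and between 1 and 10 CPM 366 rose and 372 fell. The share of rises was thus larger than that of falls below 1 CPM and from 100 CPM up, nearly equal to it between 1 and 10 CPM, and smaller between 10 and 100 CPM.

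**Figure D2:**
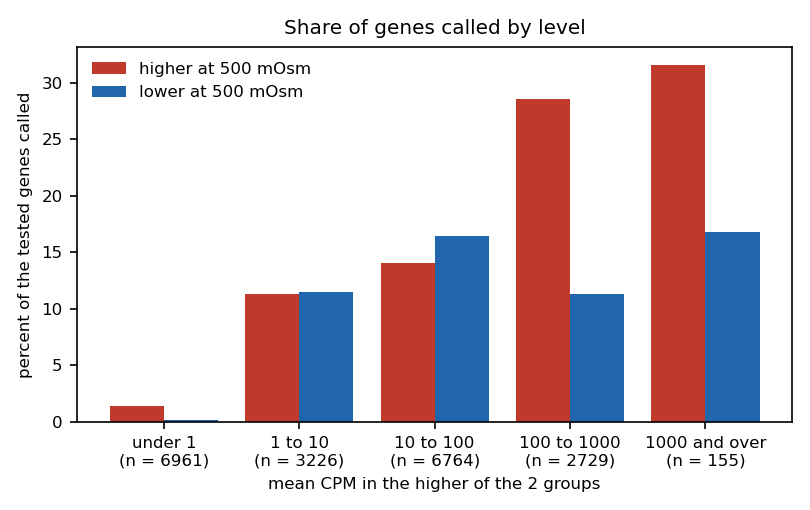
Bars give the percent of tested genes called higher (red) or lower (blue), by the mean CPM in the higher of the groups. The red bar stands at 14.1% and the blue at 16.5% between 10 and 100 CPM, and at 28.6% and 11.3% between 100 and 1000 CPM.

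The change was alike in both passages. The log2 change within passage 15 and that within passage 17 had Pearson's r of 0.942 across the 12444 genes that averaged 1 CPM or more over the 4 libraries, and each passage has its own pair of libraries. This correlation is across genes, which do not stand for replicates, and it has no p-value. All 4077 called genes moved in the same direction in both passages, as a call from 2 pairs nearly requires. The change that differed most between the passages was that of an unnamed gene of 15 exons on chromosome 15 (CanFam3.1, 40179872 to 40239634). It had 0 and 0.237 CPM at 300 mOsm against 71.9 and 33.1 CPM at 500 mOsm, and a log2 fold change of 8.94 that was 7.73 without 300 mOsm replicate 1 and 14.1 without 300 mOsm replicate 2. Its rise came in both passages, and its size rested on a few counts at 300 mOsm.

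**Figure D3:**
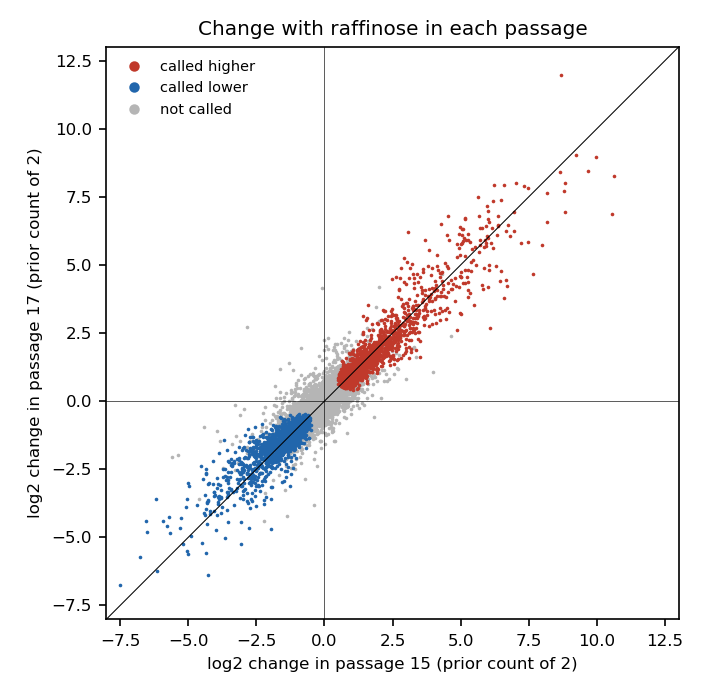
Each point is a gene that averaged 1 CPM or more, with its log2 change from 300 to 500 mOsm in passage 15 on the horizontal axis and in passage 17 on the vertical axis, both taken from log2 CPM (prior count 2). Called genes (red and blue) follow the line of equal change, and the pattern has Pearson's r of 0.942 across 12444 genes.

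The 12 largest rises with a symbol, among genes of at least 10 CPM at 500 mOsm, were in genes of several kinds, among them 2 osmolyte carriers, a potassium channel and a water channel. These rises, and the falls below, were picked for large changes in the same direction in both passages. That their groups do not overlap largely follows from this choice and is a description. In what follows CPM values are given in the order replicate 1, replicate 2 at 300 mOsm and then replicate 1, replicate 2 at 500 mOsm. PRSS35, a secreted protein of the serine protease family, had 0 counts in both 300 mOsm libraries and 19.4 and 16.5 CPM at 500 mOsm. Set against a floor of 3 counts per library, this is at least 229.5-fold higher (edgeR adjusted p = 7.41e-07). SDCBP2, a PDZ domain protein that binds membrane lipids, had 0, 0.0592, 21.2 and 22.5 CPM, a ratio of 855 with a 95% exact counting interval from 236 to 7068. Its fitted log2 fold change of 9.57 was 8.41 without 300 mOsm replicate 1 and 12.87 without 300 mOsm replicate 2, which held its only counts at 300 mOsm. PGA, the precursor of the stomach protease pepsin, had 0, 0.0592, 13.9 and 21.4 CPM, a ratio of 697 (193 to 5764), and its fitted value of 9.27 became 8.10 and 12.56 in the same fits. In these 3 genes every 500 mOsm library lay far above every 300 mOsm library, and the intervals cover counting error only. They take each count as independent and are too narrow where mates of a pair were counted separately. In each of the 4 libraries more genes had 2 counts than 1 (926 against 808 in 300 mOsm replicate 1). With every 2 counts taken as 1 fragment, a choice made after seeing the data, the interval would run from 153 to 33839 for SDCBP2 and from 125 to 27562 for PGA.

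CCL24, a chemokine that attracts eosinophils, had 0.337, 0.7400, 387 and 389.9 CPM, with a log2 fold change of 9.54 ± 0.50 (SE). It was 8.98 without 300 mOsm replicate 1 and 10.16 without 300 mOsm replicate 2. KCNJ15, an inwardly rectifying potassium channel, had 0.08997, 0.0592, 24.6 and 24.4 CPM (log2 fold change 8.27 ± 0.44, edgeR adjusted p = 4.65e-07). BMX, a tyrosine kinase of the Tec family, had 0, 0.148, 13.7 and 18.7 CPM (7.90 ± 0.56), and its log2 fold change ranged from 6.70 to 12.4 when a library at 300 mOsm was left out. Both levels at 500 mOsm exceeded both at 300 mOsm for each of them, and the fold was least certain where the 300 mOsm libraries held few counts.

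ADORA2A, a receptor for adenosine, had 0.135, 0.237, 20.3 and 18.9 CPM (6.74 ± 0.41). CYP4B1, a cytochrome P450 that oxidises fatty acids and foreign compounds, had 0.855, 0.533, 59.1 and 55.3 CPM (6.33 ± 0.34). MEGF11, a membrane protein with EGF-like repeats, had 0.08997, 0.296, 10.1 and 16.9 CPM (6.19 ± 0.49), and 5.45 and 7.18 were obtained without replicate 1 and replicate 2 at 300 mOsm. These genes were close to silent at 300 mOsm and clearly expressed at 500 mOsm, without overlap. Genes known only by an identifier rose as far. ENSCAFG00000008366 (CanFam3.1, chromosome 27, 4727561 to 4731316) had 0.247, 0, 120.3 and 192 CPM, with a log2 fold change of 10.1 that was 15.6 without 300 mOsm replicate 1 and 9.29 without replicate 2. ENSCAFG00000032573 (chromosome 6, 7150741 to 7154682) had 0.08997, 0.414, 219.9 and 142 CPM (9.58 ± 1.02), and 8.71 and 10.9 without replicate 1 and replicate 2 at 300 mOsm.

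The 12 largest falls with a symbol, among genes of at least 10 CPM at 300 mOsm, were smaller and again in genes of several kinds. CDKN3, a phosphatase that acts on cyclin-dependent kinases, had 16.3, 20.7, 0.922 and 1.23 CPM (log2 fold change -4.10 ± 0.31, edgeR adjusted p = 5.72e-06). CLDN1, a claudin that seals tight junctions, had 205, 131, 13.6 and 9.59 CPM (-3.86 ± 0.41). SFXN2, a carrier of the inner mitochondrial membrane, had 37.3, 42.00, 3.12 and 3.58 CPM (-3.56 ± 0.20). For each of these the 500 mOsm libraries lay about an order of magnitude under the 300 mOsm libraries.

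CALHM1, a voltage-gated ion channel, had 22.7, 25.4, 1.11 and 1.93 CPM (-3.98 ± 0.33). SORBS2, an adaptor of the actin cytoskeleton, had 48.7, 22.6, 4.096 and 2.03 CPM (-3.55 ± 0.39), between -2.93 without 300 mOsm replicate 1 and -4.19 without 500 mOsm replicate 1. SH3TC2, a protein of endocytic recycling, had 21.5, 11.96, 0.624 and 1.45 CPM (-4.002 ± 0.44) and reached -4.80 without 500 mOsm replicate 2. The groups did not overlap, although the replicates of SORBS2 and SH3TC2 differed by about 2-fold. DHRS3, which reduces retinal, had 26.00, 19.98, 2.06 and 2.63 CPM (-3.29 ± 0.25). TMEM74, a lysosomal membrane protein, had 23.8, 23.5, 2.98 and 2.33 CPM (-3.16 ± 0.23). CNGA1, a subunit of a cyclic nucleotide-gated channel, had 18.4, 16.4, 2.14 and 1.903 CPM (-3.11 ± 0.30). All 3 kept some expression at 500 mOsm.

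Genes without a symbol included larger falls. ENSCAFG00000028589 (CanFam3.1, chromosome 4, 66956463 to 67033953) fell from 22.7 and 18.4 CPM to 0.163 and 0.3004 CPM (-6.44 ± 0.38). ENSCAFG00000006902 (chromosome 1, 116938234 to 116947100) fell from 279 and 79.4 CPM to 2.98 and 2.80 CPM (-5.95 ± 0.53), and the value was -4.82 without 300 mOsm replicate 1 and -6.59 without 300 mOsm replicate 2. CDKN3 and DHRS3 share exonic bases with another annotated gene. Reads were counted without regard to strand, so these counts are less certain, and the same holds for ISYNA1, ATP1B1, PIR, NPC1, PFKL, LOXL2, IFI44L and DUSP4 below.

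**Figure D4:**
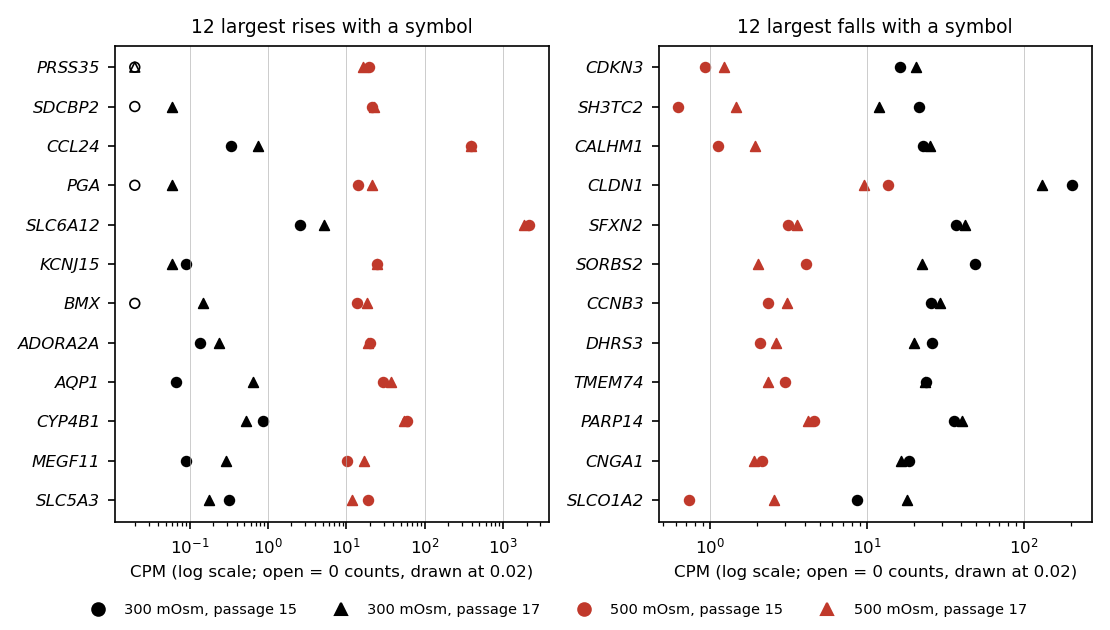
CPM in each of the 4 libraries, on a log axis, for the 12 largest rises (left) and the 12 largest falls (right) with a symbol. Black marks are 300 mOsm, red marks 500 mOsm, circles passage 15 and triangles passage 17, and an open mark at 0.02 stands for 0 counts. The black and the red marks do not overlap for any of these genes.

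The other gene groups are given with the number of their members that had a symbol, since the rest of each list could not be found in the table. A statement on a group covers these members only, and members without a symbol may have moved otherwise. Every one of the 860 genes with a symbol passed the test with the replicate block, so each member described below as not passing did pass in that fit. A median log2 fold change of a list may be read beside the 0.00 of all genes tested, and a count beside the 11.3% and 9.23% of all genes called. Since the members come from a list of changed genes, a median away from 0.00 is partly fixed by that choice and is a description. For the same reason the nearer background for a count is that list, of which 433 of 860 were called higher and 317 lower. A count near these shares, as in several groups that moved both ways, is not a result about the group.

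Genes of organic osmolyte accumulation rose in every case that could be named, 5 of 5, with a median log2 fold change of 5.82. SLC6A12, the betaine carrier, had 2.59, 5.27, 2140.0 and 1865 CPM (9.01 ± 0.42). SLC5A3, the myo-inositol carrier, had 0.315, 0.178, 19.02 and 11.9 CPM (5.92 ± 0.45). AKR1B1, aldose reductase, which makes sorbitol from glucose, had 18.04, 22.6, 1116 and 1186 CPM (5.82 ± 0.28). All of them were low or near 0 at 300 mOsm. SLC6A6, the taurine carrier, started from 250.1 and 209 CPM and reached 3351 and 2449 CPM (3.66 ± 0.23). ISYNA1, which makes the precursor of myo-inositol, had 11.1, 11.7, 152 and 118 CPM (3.57 ± 0.18), so synthesis and uptake genes of this osmolyte were both higher at 500 mOsm.

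Ion transport genes of cell volume regulation also rose, 9 of 11 with a median of 1.76. Subunits of the sodium pump, which keeps sodium out of the cell, were among them. ATP1B3, a beta subunit, had 43.9, 52.7, 388 and 309.6 CPM (2.85 ± 0.18). ATP1B1 rose by 1.47 ± 0.14 and FXYD6, a regulator of the pump, by 2.60 ± 0.27 on the log2 scale. KCNMB1, a beta subunit of the large-conductance potassium channel, had 0.04498, 0.0592, 3.499 and 7.49 CPM, a ratio of 109 (95% exact counting interval 42.3 to 402, or 29.8 to 906 with every 2 counts as 1 fragment), with a log2 fold change of 5.96 without 500 mOsm replicate 2. The chloride channel CLIC1 (-0.57 ± 0.16) and the calcium-activated chloride channel ANO1 (-1.50 ± 0.37) did not pass, with edgeR adjusted p of 0.147 and 0.0669.

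AQP1, a water channel of the proximal tubule and descending limb, had 0.0675, 0.651, 29.1 and 37.3 CPM (6.63 ± 0.54), and between 5.62 and 8.88 when a library at 300 mOsm was left out. It was the sole aquaporin with a symbol. TMEM184B, a membrane protein of the organic solute transporter fold that the study followed, had 93.2, 91.5, 800.0 and 709.9 CPM (3.03 ± 0.18, edgeR adjusted p = 8.63e-07). Of the kinases and partners tied to osmosensing, 3 of 3 rose. STK39, the kinase SPAK that acts on sodium and chloride cotransporters, had 11.1, 14.7, 56.4 and 70.5 CPM (2.30 ± 0.20). MAPK14, the p38 alpha kinase, had 51.9, 47.3, 169 and 163 CPM (1.74 ± 0.15). NEDD4L, a ubiquitin ligase of the epithelial sodium channel, rose by 0.78 ± 0.15 and lost its call in 3 of the 4 fits without 1 library (edgeR adjusted p up to 0.204).

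NFAT5 itself had no symbol at hand. In the RefSeq annotation of assembly UU_Cfam_GSD_1.0 it lies next to NQO1, and NQO1 has a neighbour on either side on chromosome 5 of the files. The neighbour of 3 exons, ENSCAFG00000033447, had 27.2, 13.6, 51.4 and 32.9 CPM. It did not pass without the block (1.04 ± 0.32, edgeR adjusted p = 0.236), and passed with it. The flanking gene of 13 exons, ENSCAFG00000020254 (CanFam3.1, 80003598 to 80115099, minus strand), had 21.8, 23.6, 85.9 and 78.5 CPM, a rise of 1.85 ± 0.15 (edgeR adjusted p = 1.07e-05). Its identity was not settled here.

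Among the solute carriers with a symbol, 13 of 19 rose and 3 fell, or 6 fell with the replicate block. Beside the osmolyte carriers, SLC17A5, the lysosomal carrier of sialic acid, had 42.5, 38.2, 178 and 195 CPM (2.21 ± 0.16). SLC11A1, a metal ion carrier of phagosomes, had 17.2, 25.4, 78.8 and 86.04 CPM (1.96 ± 0.31), and its edgeR adjusted p was 0.0631 without 300 mOsm replicate 1. The carriers that fell move organic anions, magnesium and steroid sulfates. SLCO1A2, a carrier of bile salts and other organic anions, had 8.66, 18.1, 0.732 and 2.55 CPM (-3.004 ± 0.46), and ranged from -2.38 to -4.23 when 1 library was left out. SLC41A3, a magnesium carrier, had 25.4, 30.4, 6.02 and 6.43 CPM (-2.16 ± 0.42), and SLC10A6, a carrier of sulfated steroids, had 8.300, 6.72, 3.47 and 2.98 CPM (-1.22 ± 0.25). The last 2 lost their calls in 3 of the 4 fits without 1 library, with edgeR adjusted p of up to 0.179 and 0.211. Both ABC transporters with a symbol rose. ABCC1, an export pump for glutathione conjugates, had 25.5, 20.3, 114 and 96.9 CPM (2.20 ± 0.21), and ABCB10, of the mitochondrial inner membrane, had 76.8, 78.6, 388 and 263 CPM (2.07 ± 0.28).

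Of 29 cytosolic chaperone genes listed, 5 had a symbol, and 4 of these 5 rose, with a median of 2.53 over the 5. HSPH1, a large heat shock protein that helps to dissolve protein aggregates, had 82.3, 86.4, 2661 and 2299.7 CPM (4.88 ± 0.32, edgeR adjusted p = 2.33e-06). HSF2, a heat shock transcription factor, had 9.51, 10.7, 71.8 and 72.2 CPM (2.83 ± 0.18). CRYAB, the small heat shock protein alphaB-crystallin, had 7.67, 6.097, 40.6 and 39.00 CPM (2.53 ± 0.40), with an edgeR adjusted p of 0.0628 without 300 mOsm replicate 2. The replicates of a group were close in all of them. HSPA1L, an HSP70 relative, did not pass (0.83 ± 0.21, edgeR adjusted p = 0.0767).

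In the endoplasmic reticulum 6 of 8 named genes rose and 1 fell, with a median of 1.12. EDEM3, which trims glycans of misfolded proteins before their disposal, had 63.9, 62.9, 489 and 425 CPM (2.85 ± 0.20). CRELD2, a stress-induced foldase of this compartment, had 35.2, 32.3, 133 and 137 CPM (2.00 ± 0.15), and EDEM2 had 145, 168, 318 and 394 CPM (1.19 ± 0.17). SIL1, the nucleotide exchange factor of the chaperone BiP, went the other way, with 91.8, 97.2, 44.00 and 43.03 CPM (-1.12 ± 0.14). EIF2AK3, the kinase PERK of the unfolded protein response, did not pass (0.79 ± 0.19, edgeR adjusted p = 0.0619). EIF4EBP1, the sole ATF4 target with a symbol, rose by 0.85 ± 0.18 and lost its call in 3 of the 4 fits without 1 library (edgeR adjusted p up to 0.412).

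Metallothioneins, small cysteine-rich proteins that bind zinc and copper, rose in all 3 members with a symbol. MT1X had 44.2, 66.8, 1585 and 1865 CPM (4.96 ± 0.24). MT1E had 6.703, 8.79, 133 and 189 CPM (4.38 ± 0.22), and MT2A had 43.6, 61.6, 819 and 900.2 CPM (4.03 ± 0.21). At 500 mOsm every library was at least an order of magnitude above those at 300 mOsm. Genes of this family are known to be similar in sequence, so the split of reads between them is uncertain, and it was not tested. SLC39A4, a zinc importer, did not pass (-1.12).

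Genes of oxidative defence went both ways, with 5 of 9 higher and 3 lower. PIR, an iron-binding redox protein, had 48.2, 47.5, 397 and 423 CPM (3.099 ± 0.16). HMOX1, heme oxygenase, had 8.97, 7.75, 52.8 and 53.1 CPM (2.66 ± 0.15), and ME1, malic enzyme, which supplies NADPH, had 265, 179, 1119.9 and 728 CPM (2.06 ± 0.26). Against these, AIFM2, a reductase that guards membranes from lipid peroxidation, had 92.1, 117, 44.4 and 54.1 CPM (-1.09 ± 0.17), and GSTA4, which conjugates glutathione to a lipid peroxidation product, had 53.6, 60.4, 25.4 and 34.4 CPM (-0.93 ± 0.19). GSTA4 lost its call in 2 of the 4 fits without 1 library (edgeR adjusted p up to 0.211).

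Genes of mitosis with a symbol, 37 of 50 listed, fell in 31 cases, with a median of -1.31 over the 37. Beside CDKN3, CCNB3, a B-type cyclin, had 25.8, 29.4, 2.33 and 3.104 CPM (-3.34 ± 0.31). SPC24, a subunit of the NDC80 complex that ties kinetochores to microtubules, had 72.3, 109, 12.2 and 13.4 CPM (-2.82 ± 0.21). The complex had all of its 4 subunits among the named genes (NDC80, NUF2, SPC24 and SPC25), and all fell, by 1.11 to 2.82 on the log2 scale. KIF18A, a motor that limits the length of spindle microtubules, was the sole member that rose, with 30.1, 33.1, 61.96 and 63.9 CPM (0.995 ± 0.16, edgeR adjusted p = 0.00253, or 0.0612 without 300 mOsm replicate 1). The 5 members that did not pass all had negative values, from -0.95 for CDC25C to -0.62 for KIF22.

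DNA replication genes with a symbol, 4 of 41 listed, fell in 3 of these 4. DUT, which clears dUTP, had 85.1, 76.9, 39.2 and 31.7 CPM (-1.19 ± 0.16). POLD1, the catalytic subunit of DNA polymerase delta, had 81.9, 79.8, 45.1 and 43.1 CPM (-0.87 ± 0.18), and RFC2, of the clamp loader, had 102, 112, 66.5 and 65.6 CPM (-0.70 ± 0.15). POLD1 kept its call in none and RFC2 in 1 of the 4 fits without 1 library, with edgeR adjusted p of up to 0.143 and 0.227. Growth arrest genes with a symbol, 5 of 26 listed, went up in 4 of these 5. BTG1, an antiproliferative protein, had 29.3, 27.5, 99.7 and 93.5 CPM (1.77 ± 0.17), PLK3, a stress-responsive kinase, had 3.17, 2.37, 7.87 and 8.19 CPM (1.53 ± 0.22), and TIGAR, a p53 target that slows glycolysis, had 39.6, 49.6, 110.3 and 108 CPM (1.29 ± 0.16). SFN, another p53 target, did not pass without the block (-0.61 ± 0.15, edgeR adjusted p = 0.0573), but was called lower with DESeq2's size factors. The apoptosis gene BAK1, which codes for a pore former of the mitochondrial membrane, was lower by a small amount. It had 82.4, 101, 53.7 and 62.2 CPM (-0.66 ± 0.15), and without 1 library its edgeR adjusted p reached 0.541.

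Ribosome biogenesis moved mostly down, with 8 of 12 lower and 3 higher. MYC, the transcription factor that drives it, had 110.0, 118, 26.2 and 34.6 CPM (-1.91 ± 0.19). GAR1, a component of the particles that make pseudouridine in ribosomal RNA, had 20.9, 22.6, 10.3 and 7.39 CPM (-1.30 ± 0.20). WDR46 (1.16 ± 0.15) and RBM28 (0.96 ± 0.14), both nucleolar proteins, rose, RBM28 with an edgeR adjusted p of 0.0514 without 300 mOsm replicate 1. Among immediate early genes MYC, TRIB1 and ZFP36L2 fell while the phosphatases DUSP4 and DUSP7 rose. TRIB1, a pseudokinase that leads substrates to degradation, had 135, 124, 20.8 and 17.6 CPM (-2.75 ± 0.16). DUSP4, which switches off MAP kinases, had 57.2, 51.6, 188 and 176 CPM (1.74 ± 0.17), and DUSP7 had 42.3, 43.4, 124 and 102 CPM (1.39 ± 0.26), with an edgeR adjusted p of up to 0.144 without 1 library.

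Interferon-stimulated genes fell in 10 of 11 named members, with a median of -1.95. IFI44L had 8.12, 7.78, 0.163 and 0.3505 CPM (-4.92 ± 0.56), and -5.64 without 500 mOsm replicate 2. PARP14, an ADP-ribosyltransferase, had 36.1, 40.6, 4.61 and 4.18 CPM (-3.12 ± 0.21). ISG15, a ubiquitin-like modifier, had 38.5, 72.8, 6.24 and 10.97 CPM (-2.69 ± 0.31), so the levels at 500 mOsm were far lower although the replicates at 300 mOsm differed from each other. HELZ2 did not pass (-0.63 ± 0.16, edgeR adjusted p = 0.0641). All 4 samples had been transfected with siRNA, and an untransfected level of these genes was not analysed here.

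Genes of cholesterol synthesis and other SREBP2 targets rose, 10 of 12 with a median of 1.28. FDFT1, squalene synthase, had 196, 173, 954 and 831 CPM (2.27 ± 0.23). NPC1, which exports cholesterol from lysosomes, had 72.9, 63.3, 261 and 223 CPM (1.83 ± 0.15), and INSIG1, the sterol-regulated retention factor of SREBP, had 215, 246, 756 and 850.1 CPM (1.80 ± 0.17). TM7SF2, a sterol reductase, was lower (-0.76 ± 0.15) and lost its call in 3 of the 4 fits without 1 library (edgeR adjusted p up to 0.202). SREBF1, a transcription factor of lipid synthesis, did not pass (0.56 ± 0.15, edgeR adjusted p = 0.0898).

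Fatty acid and triglyceride synthesis had 5 of 8 members higher and 1 lower. DGAT2, the last enzyme of triglyceride synthesis, had 13.5, 18.6, 59.2 and 50.5 CPM (1.78 ± 0.27, edgeR adjusted p = 0.00193, or 0.0515 without 300 mOsm replicate 1). LPIN1, a phosphatidate phosphatase, rose by 0.97 ± 0.21 and ACACB, the mitochondrial acetyl-CoA carboxylase, fell by 1.37 ± 0.26 on the log2 scale, and both lost their calls in all 4 fits without 1 library (edgeR adjusted p up to 0.563 and 0.155). Fatty acid oxidation and peroxisome genes fell, 5 of 6 with a median of -1.43. PEX11A, a factor of peroxisome division, had 35.04, 35.01, 10.5 and 10.3 CPM (-1.75 ± 0.19). DECR1, of the oxidation of unsaturated fatty acids, had 40.5, 40.9, 13.05 and 14.5 CPM (-1.56 ± 0.19), and PECR, a peroxisomal reductase, had 11.4, 15.4, 3.201 and 4.61 CPM (-1.78 ± 0.28), with an edgeR adjusted p of 0.0528 at the highest without 1 library. ACADM did not pass (-0.55 ± 0.14, edgeR adjusted p = 0.0745).

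Glycolysis genes split, 4 of 6 higher and 2 lower. HK2, hexokinase, had 100.3, 99.2, 361 and 399.6 CPM (1.93 ± 0.16) and ENO3, an enolase, had 66.2, 83.6, 235 and 249.9 CPM (1.70 ± 0.18). PFKL, a phosphofructokinase, had 554, 562, 319.5 and 346 CPM (-0.75 ± 0.15) and BPGM, which makes bisphosphoglycerate, had 9.02, 7.75, 2.93 and 3.405 CPM (-1.40 ± 0.27). BPGM kept its call in 1 and PFKL in 2 of the 4 fits without 1 library (edgeR adjusted p up to 0.133 and 0.104). Genes known as hypoxia targets rose in 8 of 9. PLOD2, a collagen lysyl hydroxylase, had 78.5, 74.7, 1092 and 1092 CPM (3.83 ± 0.19), LOX, which crosslinks collagen, had 186, 318, 2648 and 2180.0 CPM (3.26 ± 0.29), and VEGFA, the endothelial growth factor, had 312, 324, 1371 and 1400.0 CPM (2.12 ± 0.19). EGLN3 did not pass (0.99 ± 0.24, edgeR adjusted p = 0.0618). Of the respiratory chain only the complex I subunits NDUFB3 (-1.43 ± 0.21) and NDUFV2 (1.12 ± 0.16) had a symbol, and they moved in opposite directions.

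Matrix proteins, proteases and integrins rose in 13 of 14 named members, with a median of 2.45. LOXL2, a collagen crosslinking oxidase, had 4.07, 4.91, 154 and 117 CPM (4.91 ± 0.53, edgeR adjusted p = 0.000120). COL6A1, a chain of collagen VI, had 0.04498, 0.592, 8.82 and 8.69 CPM (4.87 ± 0.62), and between 3.83 and 7.51 when a library at 300 mOsm was left out. Integrin subunits did not all follow, since ITGB6 had 61.4, 64.7, 29.6 and 33.6 CPM (-0.996 ± 0.15) while ITGA2 (2.29) and ITGB3 (1.63) rose. LAMA3, a chain of an epithelial laminin, rose by 2.40 on the log2 scale.

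Growth factors and their signalling partners had 8 of 15 members higher and 3 lower, or 6 lower with the replicate block. PTHLH, the parathyroid hormone-like peptide, had 2.92, 2.75, 12.02 and 14.4 CPM (2.22 ± 0.21). LTBP1, which holds latent TGF-beta in the matrix, had 233, 189, 1123 and 799 CPM (2.19 ± 0.24). ID3, a target of BMP signalling that blocks differentiation factors, had 61.3, 47.03, 17.5 and 10.5 CPM (-1.95 ± 0.24), and WNT7B, a WNT ligand of the collecting duct, had 38.8, 39.5, 13.6 and 16.4 CPM (-1.38 ± 0.20). Of 5 cytokine genes CCL24, RARRES2 and CSF1 rose and TNFSF10 and CLCF1 fell. RARRES2, chemerin, had 1.01, 1.63, 15.8 and 41.7 CPM (4.46 ± 0.48, or 3.54 without 500 mOsm replicate 2), and CSF1, the macrophage growth factor, had 41.1, 33.9, 86.8 and 81.3 CPM (1.16 ± 0.17). TNFSF10 (-0.88 ± 0.20) and CLCF1 (-0.82 ± 0.19) lost their calls in all 4 fits without 1 library, with edgeR adjusted p of up to 0.315 and 0.355.

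Epithelial junction and filament genes diverged. Against the fall of CLDN1, the desmosomal cadherin DSC3 had 82.9, 83.8, 494 and 469 CPM (2.53 ± 0.14) and PKP4, a catenin of adhesive junctions, had 275, 241, 1055 and 867 CPM (1.90 ± 0.17). The keratin KRT80 had 229, 289.9, 80.98 and 89.2 CPM (-1.61 ± 0.17) and KRT5 had 122, 125, 57.5 and 56.5 CPM (-1.12 ± 0.16). The entry annotated as KRT5 holds 27 exon blocks on chromosome 27 (2567144 to 2810269), against 9 for KRT80, so its counts may not come from KRT5 alone. KRT25 had 0 counts at 300 mOsm and 6.27 and 12.2 CPM at 500 mOsm, at least 118-fold higher against 3 counts per library. Actin and YAP target genes were split 4 to 4. AMOTL2, a YAP-binding protein of junctions, had 198, 232, 48.3 and 49.6 CPM (-2.13 ± 0.15), FMNL2, a formin, had 6.37, 7.43, 1.87 and 2.303 CPM (-1.72 ± 0.28, edgeR adjusted p of 0.0648 without 500 mOsm replicate 1), and DSTN, which severs actin filaments, had 189, 169, 654 and 600.2 CPM (1.81 ± 0.20).

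ELF3, an epithelial transcription factor and the sole general epithelial marker with a symbol, was present in every library at 399, 294, 84.8 and 66.5 CPM and fell by 2.20 ± 0.18 on the log2 scale (edgeR adjusted p = 1.52e-05). TFCP2L1, a transcription factor of the collecting duct, had 48.7, 36.9, 11.1 and 11.5 CPM (-1.92 ± 0.24), and GATA2, another of the collecting duct, had 16.2, 17.1, 38.6 and 32.1 CPM (1.08 ± 0.16). Markers of other cell types that had a symbol were single genes. THY1, of fibroblasts, had 0, 0.0592, 5.89 and 8.04 CPM, a ratio of 274 (95% exact counting interval 75.5 to 2269, or 48.8 to 10864 with every 2 counts as 1 fragment). Its fitted log2 fold change of 7.91 was 6.76 without 300 mOsm replicate 1 and 11.22 without 300 mOsm replicate 2. TIE1, of endothelium, had 25.6, 39.2, 13.3 and 13.1 CPM (-1.29 ± 0.28, edgeR adjusted p up to 0.505 without 1 library). The part of other cell types in these results was not tested, since the fibroblast and the endothelial list had 1 marker with a symbol each.

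Zinc finger genes of the ZNF family, many of which encode repressors with a KRAB domain, fell in 17 of 21 named members, with a median of -1.33. ZNF383 had 5.49, 4.77, 0.651 and 0.926 CPM (-2.69 ± 0.38), ZNF260 had 7.85, 6.51, 1.302 and 1.15 CPM (-2.55 ± 0.30), and ZNF264 had 5.85, 4.65, 1.14 and 0.701 CPM (-2.51 ± 0.36). ZNF234 had 15.8, 14.6, 3.47 and 2.05 CPM (-2.46 ± 0.29) and ZNF45 had 8.48, 6.63, 2.93 and 2.18 CPM (-1.57 ± 0.26, edgeR adjusted p = 0.0609 without 500 mOsm replicate 2). These are genes of low level, and at 500 mOsm they lay at a few CPM or less. ZNF697 rose, with 3.04, 3.197, 14.9 and 13.2 CPM (2.17 ± 0.22). ZNF292 was higher by 0.64 ± 0.15 but not with DESeq2's size factors, and it lost its call in all 4 fits without 1 library (edgeR adjusted p up to 0.411).

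Cilium genes fell in 4 of 7 and rose in 3. INPP5E, a lipid phosphatase of the cilium, had 18.7, 21.8, 4.88 and 4.61 CPM (-2.09 ± 0.22), while EVC2 (1.32 ± 0.13) and BBS2 (1.12 ± 0.14) rose. In the autophagy and lysosome list 3 of 6 rose, or 5 with the replicate block, and 1 fell. ARSB, a lysosomal sulfatase of glycosaminoglycans, had 15.2, 12.1, 95.9 and 95.96 CPM (2.81 ± 0.19), and RETREG1, a receptor for autophagy of the endoplasmic reticulum, had 20.8, 19.9, 62.2 and 70.4 CPM (1.70 ± 0.15). FLCN, folliculin (1.12 ± 0.19), and RUBCN, which restrains autophagy (-0.95 ± 0.19), lost their calls in some fits without 1 library, with edgeR adjusted p of up to 0.0902 and 0.139.

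In the list of nuclear receptors 3 of 4 rose, and 1 of those was GPER1, an estrogen receptor of the membrane that is not a nuclear receptor. GPER1 had 0, 0.118, 1.46 and 2.03 CPM (4.96 ± 0.92), which rested on 4 counts at 300 mOsm. It ranged from 3.80 to 9.22 in the fits without 1 library and kept its call in 1 of the 4 (edgeR adjusted p up to 0.119). NR1H4, the bile acid receptor FXR, had 0.787, 0.918, 42.8 and 42.5 CPM (5.65 ± 0.24, edgeR adjusted p = 1.41e-07), so it was near 0 at 300 mOsm in both libraries. RARG, a retinoic acid receptor (-0.82 ± 0.15), fell and NR2F6 (0.70 ± 0.14) rose. NR2F6 kept its call in none and RARG in 2 of the 4 fits without 1 library. Their log2 fold changes in these fits ran from 0.63 to 0.69 and from -0.95 to -0.77. RORA, a nuclear receptor counted in the circadian clock list, had 0.652, 1.45, 11.96 and 11.02 CPM (3.47 ± 0.38), between 2.94 and 4.13 without a library at 300 mOsm. CIPC, a repressor of CLOCK, had 14.6, 13.3, 6.81 and 5.23 CPM (-1.21 ± 0.20, edgeR adjusted p = 0.0566 without 500 mOsm replicate 2), and PER1 did not pass (-0.51 ± 0.15). Of genes often used as references, HPRT1 had 88.5, 118, 159 and 181 CPM (0.72 ± 0.17, edgeR adjusted p = 0.0429, and up to 0.845 without 1 library) and UBB had 419, 389, 638 and 596 CPM (0.61 ± 0.15, edgeR adjusted p = 0.0672).

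**Figure D5:**
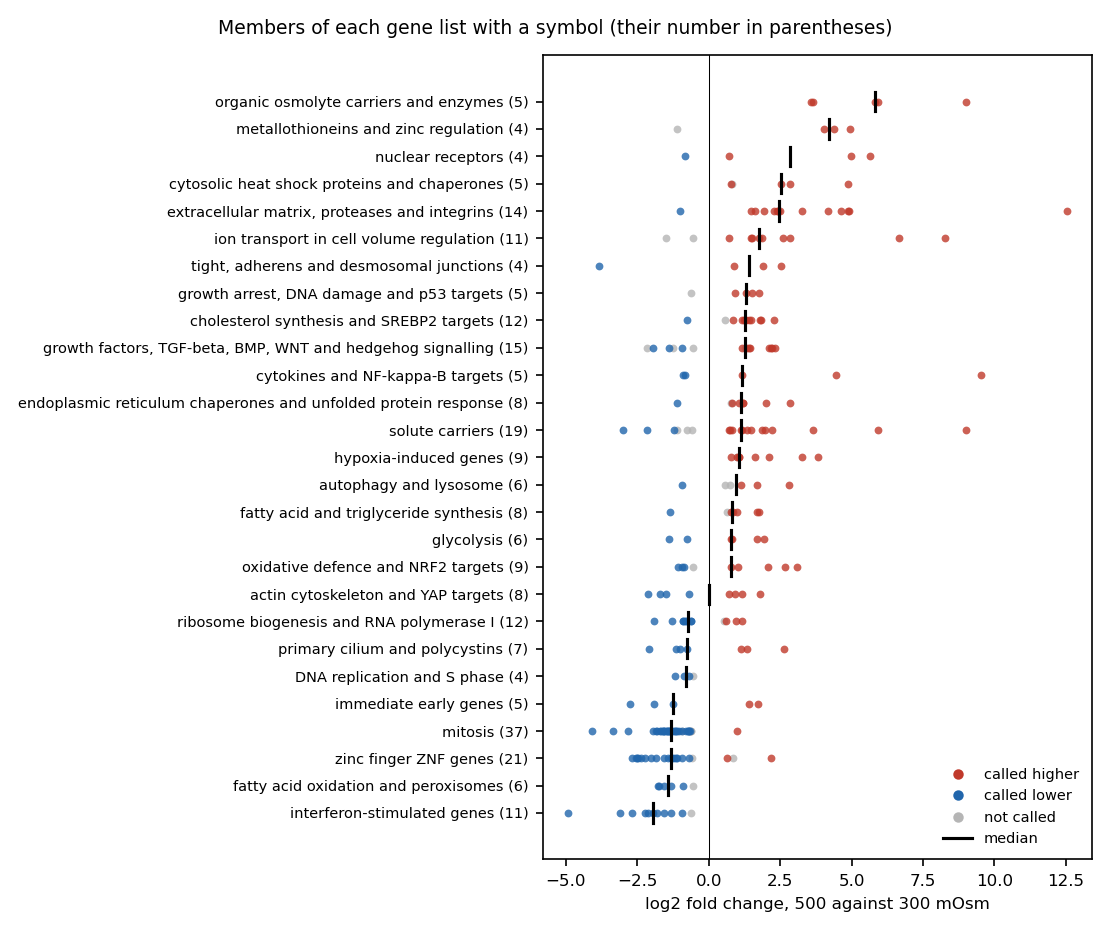
Each point is a member with a symbol, by its log2 fold change between 500 and 300 mOsm, for the lists with at least 4 such members. Red, blue and grey points were called higher, called lower and not called, and the black bar is the median of the list, from -1.95 for interferon-stimulated genes to 5.82 for organic osmolytes. Few points lie near 0, since the symbols belong to genes picked for having changed.

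Genes that changed were often neighbours on a chromosome. Among 12769 pairs of adjacent genes of at least 1 CPM, a gene that rose was followed by another that rose in 25.7% of 2137 cases, while 16.7% of all next genes rose. For falls the values were 20.5% of 1807 cases and 14.1%. Genes with overlapping reads are among these pairs, and their part was not tested. A run is given here as adjacent genes of at least 1 CPM called in the same direction. On chromosome 1 (CanFam3.1, 110868378 to 111322057) 8 neighbours in a row fell, among them ZNF235, ZNF234, ZNF45 and ZNF283, by 1.28 to 2.46 on the log2 scale, and 7 in a row that include ZNF329 fell elsewhere on the same chromosome (99642374 to 100378481). No member of either run shared exonic bases with another gene. On chromosome 33 (25640915 to 25801465) the interferon-stimulated genes PARP9, DTX3L and PARP14 and an unnamed gene between them fell together.

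Runs of genes that rose were found as well. On chromosome 12 (48340097 to 48844777) 8 neighbours rose. They include PM20D2, with 7.09, 5.12, 56.3 and 63.5 CPM (3.29 ± 0.25), and GABRR2, a GABA receptor subunit, which had 0 counts at 300 mOsm and 3.07 and 4.88 CPM at 500 mOsm. On chromosome 2 (59388292 to 59735901) a run of 7 held the metallothioneins MT1X and MT2A together with NUP93, of the nuclear pore (1.73 ± 0.22), and BBS2. On chromosome 23 (37684435 to 37996387) a run of 4 held ATP1B3, an unnamed gene, TFDP2 (2.63 ± 0.18) and GK5, a glycerol kinase (1.87 ± 0.17), and CCL24 stood in a run of 5 on chromosome 6 (6957694 to 7318040) with HIP1 (2.23 ± 0.18), RHBDD2 (1.99 ± 0.19) and ENSCAFG00000032573.

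Gene structure differed between the directions. Among genes of at least 1 CPM in the higher group, those that rose spanned a median of 31.0 kb of genome, those that fell 16.9 kb and those not called 17.8 kb. The summed exon length was 2721 bases in the median for genes that rose, 2289 for genes that fell and 2146 for the rest. Longer exons give more reads at the same expression, and the part of read depth in these differences was not tested. The span of genes that fell was close to that of genes not called.

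Of the 10 genes with the highest mean CPM over the 4 libraries, 4 lay on the mitochondrial chromosome and none of those was called (log2 fold changes from -0.30 to 0.15, edgeR adjusted p = 1), while all 6 nuclear genes were, 2 of them higher and 4 lower (-1.35 to -2.86). ANXA2, annexin A2, which binds membranes and actin, had 2541, 3503, 6715 and 6701 CPM (1.15 ± 0.19), with an edgeR adjusted p of 0.0846 without 300 mOsm replicate 1. An unnamed gene of 13 exons on chromosome 1 (CanFam3.1, 84743276 to 84763121) fell from 6859 and 12173 CPM to 1039 and 1575 CPM (-2.86 ± 0.27), and an unnamed gene on chromosome 21 (40831917 to 40841198) rose from 2247 and 2577 CPM to 8047 and 8165 CPM (1.75 ± 0.20). The 10 most abundant genes of each library took 7.56% and 9.18% of its counts at 300 mOsm and 6.22% and 7.37% at 500 mOsm. Mitochondrial genes took 5.67% and 6.52% at 300 mOsm and 4.39% and 5.87% at 500 mOsm. Within each passage both shares were lower at 500 mOsm, although the mitochondrial shares of the groups overlapped. Of 37 mitochondrial genes tested, 0 were higher and 3 lower, with a median log2 fold change of -0.34. Of all genes tested 11.3% were higher and 9.23% lower, so the falls were near that share and are not a result about these genes. With the replicate block 1 of the 37 was higher and 5 were lower, beside 17.3% and 15.8% of all genes tested.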

How the data were processed

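The authors sequenced polyA RNA, mapped the reads to CanFam3.1 with HISAT2 2.0.5 and, per the file headers, counted reads on the exons of Ensembl genes with featureCounts 1.5.1 without regard to strand and without an option to count pairs as fragments. The counts were deposited without normalization, so mates of a pair may have been counted separately. All 8 libraries entered the fit, the 4 groups being those of the labels. Genes whose counts summed to 5 or more were tested with edgeR 4.0.16 (R 4.3.3; TMM, quasi-likelihood test, two-sided, Benjamini-Yekutieli adjustment). The standard error was taken from the F statistic. The replicate numbers mark cell passages 15 and 17, which pair the samples. The difference between the passages correlated between the 300 and 500 mOsm groups with r of 0.463 across genes, and the fit with this block was the paired alternative. The other alternatives were DESeq2's size factors, no filter, filterByExpr, DESeq2 1.42.0, the Benjamini-Hochberg adjustment, only the 4 Neg-siRNA libraries, and each replicate left out. The tests were checked on simulated data. Without the block, edgeR recovered 100 of 100 changes of 4-fold and 40 of 100 changes of 2-fold, and called 1 unchanged gene. With DESeq2 on the same simulated data these numbers were 99, 49 and 2. The fit with the block had its own simulation, with a passage difference added, and gave 100, 91 and 0. Its common dispersion was 0.0168, against 0.032 without the block, so the recoveries with and without the block cannot be compared. Each simulation gave every gene the same dispersion and changed only genes above a minimum level, unlike the real data. Depth was of the same order in the 4 libraries, and the error of a fold change was taken from the spread between replicates. Intervals and floors of 3 counts cover counting error only.

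Symbols came from the study's published gene list (860 identifiers), and its values were not used. The members and gene lists were chosen with earlier results of these data known. Named were the 12 largest rises and falls with a symbol (at least 10 CPM in the higher group, same direction in both passages), the first 2 without a symbol each way, the 3 largest called members of a list at 5 CPM or more with up to 2 against its majority (5 each way for families), the 10 genes of highest CPM and the largest passage differences. Members that did not pass, and members of neighbour runs, were named after their values were seen. Lists without a member to describe were cytosolic ribosomal proteins (0 symbols) and the intercalated cell, leukocyte and smooth muscle markers. Promoter motifs were not analysed here, and some genes that the naming rule chose are not reported here. Python 3.11.15, pandas 2.3.3 and scipy 1.17.1 made the tables.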

Additional observations from a re-analysis of the deposited data

How the results depend on the processing

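With the replicate block, which pairs the samples by passage, 3441 genes were higher and 3125 lower, against 2246 and 1831 without it, and with the block and only the 4 Neg-siRNA libraries the numbers were 3962 and 3776. The Benjamini-Hochberg adjustment gave 3709 higher and 3324 lower. Leaving out 1 library gave between 1393 and 1526 higher and between 991 and 1245 lower, with 1 library then assumed to vary like the other groups. By library, 1427 and 1245 were called without 300 mOsm replicate 1, 1431 and 1143 without 300 mOsm replicate 2, 1393 and 991 without 500 mOsm replicate 1, and 1526 and 1083 without 500 mOsm replicate 2. These fits had fewer samples. DESeq2's size factors, no filter, filterByExpr, DESeq2 and the fit of only the 4 Neg-siRNA libraries changed both numbers by less than 1.5 times, with 1918 to 2842 higher and 1550 to 2434 lower. DESeq2's size factors moved the median log2 fold change of all genes by -0.02.

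Of the 148 called genes that the naming rule chose, none changed direction under these alternatives. The block, no filter, DESeq2 and the Benjamini-Hochberg adjustment kept all 148 calls. Much of this was fixed in advance. The Benjamini-Hochberg adjustment of the same p-values cannot lose a call. All 860 genes with a symbol passed with the block, and the study had chosen them on these same samples with DESeq2. The kept calls are therefore a description and not independent support. DESeq2's size factors lost 1 (ZNF292), filterByExpr lost 5 (among them LPIN1, TNFSF10, HPRT1 and TIE1), and the 4 libraries alone lost 7 (EIF4EBP1, RFC2, BAK1, TM7SF2, CLCF1, ZNF292 and HPRT1). In the fits without 1 library 35 of them lost the call at least once, and the cause was not tested. The block changed the counts of 20 of 38 gene lists and DESeq2's size factors those of 4. Depth limits the folds of genes with few counts at 300 mOsm.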
